A study of Mus musculus with 13 samples.

Results

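The Lin28, Hmga and Igf2bp genes were followed through development of the mouse submandibular gland. They are 7 genes (Lin28a, Lin28b, Hmga1, Hmga2, Igf2bp1, Igf2bp2 and Igf2bp3) of the 23364 in each file, and they were found by symbol in all 13 RNA-seq libraries. Untreated C57BL/6 glands were sampled at embryonic days E14.5, E16.5 and E18.5, at postnatal day 5 (P5), and at 4wk and 12wk of age. There were 3 libraries at E14.5 and 2 at each later age. Glands of 3 animals were pooled for a library at E14.5, and of 2 animals for one at E16.5 or E18.5. The 4wk and 12wk mice were male, and the sex of the embryos was not ascertained. The 3 embryonic ages formed the embryo stage (7 libraries), P5 as the neonatal stage (2 libraries), and 4wk and 12wk as the adult stage (4 libraries).

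Lin28a and Lin28b are RNA-binding proteins that block the maturation of let-7 microRNAs, and let-7 in turn represses the Lin28 genes. Hmga1 and Hmga2 are small chromatin proteins that bind AT-rich DNA through AT-hook motifs. Igf2bp1, Igf2bp2 and Igf2bp3 bind messenger RNAs, among them Igf2 mRNA, and affect their stability, transport and translation. All these families are known for high levels in embryonic and tumour tissue and low levels in most adult tissues, and most members are known targets of let-7. The gland itself branches, forms lumens and begins to secrete over the embryonic ages sampled here, and its granular ducts mature at puberty.

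The mature let-7 family is shown because its seed, bases 2 to 8 of the microRNA, is what pairs with a target. Mature microRNAs were not measured by these libraries, so the sequences serve only to read the target sites. The RefSeq entries on build GRCm38.p6 held 11 mature names of let-7 and miR-98, of which 10 shared the seed GAGGUAG and 1, let-7j, had GAGGUAU. In the lines below the seed is in capitals.
mmu-let-7a-5p: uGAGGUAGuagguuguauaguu
mmu-let-7b-5p: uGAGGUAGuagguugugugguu
mmu-let-7d-5p: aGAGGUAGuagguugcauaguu
mmu-miR-98-5p: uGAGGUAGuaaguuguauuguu
mmu-let-7j: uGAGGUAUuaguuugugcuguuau

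The DNA motif complementary to the shared seed, CTACCTC, was searched on the transcript strand in the 3′ UTR of each gene (GENCODE vM1 annotation on NCBIM37, which is mm9, the authors' build). All 7 genes held at least 1 match, against 8.80% of the 19915 genes with an annotated 3′ UTR and 14.9% of the 9028 genes whose 3′ UTR had 1000 to 6500 bases. At least 2 matches were found in 4 of the 7 genes, against 1.01% of all genes. The counts were 4 in Lin28b, 4 in Hmga2, 4 in Igf2bp1, 2 in Lin28a and 1 each in Hmga1, Igf2bp2 and Igf2bp3. These genes were brought together as let-7 targets, so their count is a description and not independent evidence. Of the 17 matches, 9 were followed by an A, the base that lies opposite the first base of the microRNA. The match nearest the stop codon in each gene is given with its flanks, with the motif in capitals, since it lets the genes be compared at 1 site each.
Lin28a, exonic 3′ UTR, chr4:133561104-133561125, minus strand: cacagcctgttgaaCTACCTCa
Lin28b, exonic 3′ UTR, chr10:45100828-45100849, minus strand: cccgggcgggaagtCTACCTCa
Hmga1, exonic 3′ UTR, chr17:27700223-27700244, plus strand: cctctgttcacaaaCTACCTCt
Hmga2, exonic 3′ UTR, chr10:119801280-119801301, minus strand: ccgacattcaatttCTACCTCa
Igf2bp1, exonic 3′ UTR, chr11:95823092-95823113, minus strand: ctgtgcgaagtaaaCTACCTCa
Igf2bp2, exonic 3′ UTR, chr16:22059546-22059567, minus strand: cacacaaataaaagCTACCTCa
Igf2bp3, exonic 3′ UTR, chr6:49036786-49036807, minus strand: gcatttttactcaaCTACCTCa
Hmga1 was the member whose printed match was followed by another base than A. The Lin28b and Hmga2 matches lay close behind the stop codon, from bases 36 and 58 of their 3′ UTRs, and the Igf2bp1 match lay at base 1715 of the longest 3′ UTR of the group, 6337 bases.

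The values are FPKM, read numbers scaled to the length of the gene and to the reads on genes of the library, so levels can be compared between genes as well as between libraries. Depth was recovered from the FPKM and was between 5817293 and 48314162 reads on genes per library, with the 2 lowest totals at 4wk. The 10 most abundant genes took 7.18% of the summed FPKM in the median embryo library, 29.2% to 31.1% at P5 and 48.1% to 61.1% in the adult. FPKM are shares, so the share taken by these genes lowers the FPKM of the others. The median log2 fold change of all tested genes from embryo to adult was -0.75 as deposited, and -0.05 after rescaling by median-of-ratios factors. Stage changes of the members are therefore given with their rescaled values where the scaling matters most, from embryo to adult, and calls under both scalings are given elsewhere. The glands carried epithelial markers at every age (8 genes, summed level 398 to 1757 FPKM). Acinar markers (6 genes) rose from a summed level of 51.5 to 72.3 FPKM at E14.5 to between 80260 and 154900 FPKM in the adult. E14.5 replicate 1 stood apart from the other E14.5 libraries, with a summed level of erythroid markers of 3367 FPKM against 485 and 868, and of epithelial markers of 398 FPKM against 671 and 649. In whole glands, fewer cells of a type and less RNA per cell cannot be told apart.

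Igf2bp2 and Igf2bp3 were the most abundant of the group from E14.5 to P5, and the means of all 3 Igf2bp genes declined at every sampled age from E14.5 to 4wk. Igf2bp3 kept its level longest. It was at 35.8, 33.9 and 35.2 FPKM in the 3 E14.5 libraries, 25.1 and 30.3 FPKM at E16.5, 19.01 and 16.9 FPKM at E18.5, and 10.3 and 9.61 FPKM at P5. The libraries of each age lay close together and no age overlapped the next. With 2 or 3 libraries per age such separation is a weak sign, and its share over all genes was not counted for neighbouring ages. From 4wk to 12wk, where no member was called, 2 of the 5 tested members did not overlap either. In the adult it was at 0 and 0.0578 FPKM at 4wk and at 0.242 and 0.235 FPKM at 12wk. The P5 mean was 28.4% ± 1.35 (SD, n = 2) of the E14.5 mean, and the 12wk mean was 0.682% ± 0.0158 (SD, n = 2) of it.

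Igf2bp2, the member of its family also known from adult metabolism, started at a similar level and fell sooner. Its levels were 45.1, 35.4 and 36.6 FPKM at E14.5, 18.0 and 19.8 FPKM at E16.5, 11.7 and 8.67 FPKM at E18.5, and 2.97 and 2.55 FPKM at P5. At E14.5 its range overlapped that of Igf2bp3, whereas from E16.5 to P5 every library held less Igf2bp2 than Igf2bp3. It was at 0 in both 4wk libraries and at 0.165 and 0.0812 FPKM at 12wk. Relative to E14.5 the mean was 48.5% ± 3.24 (SD, n = 2) at E16.5 and 7.08% ± 0.769 (SD, n = 2) at P5.

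Igf2bp1 was the least abundant of the 3 at every age from E14.5 to P5 and fell the most by P5, to 2.65% of its E14.5 mean. Its levels were 9.34, 5.60 and 6.20 FPKM at E14.5, 3.23 and 4.72 FPKM at E16.5, 2.24 and 1.47 FPKM at E18.5, and 0.195 and 0.178 FPKM at P5. The step from E18.5 to P5 was 9.93-fold between means, against 3.70-fold for Igf2bp2 and 1.81-fold for Igf2bp3. No read fell on Igf2bp1 in any of the 4 adult libraries, which allows 3 reads over the group, or 0.00559 FPKM. Without rescaling, the embryo mean was at least 838-fold higher than this limit. Such limits and the read intervals given below cover counting error only.

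**Figure D1:**
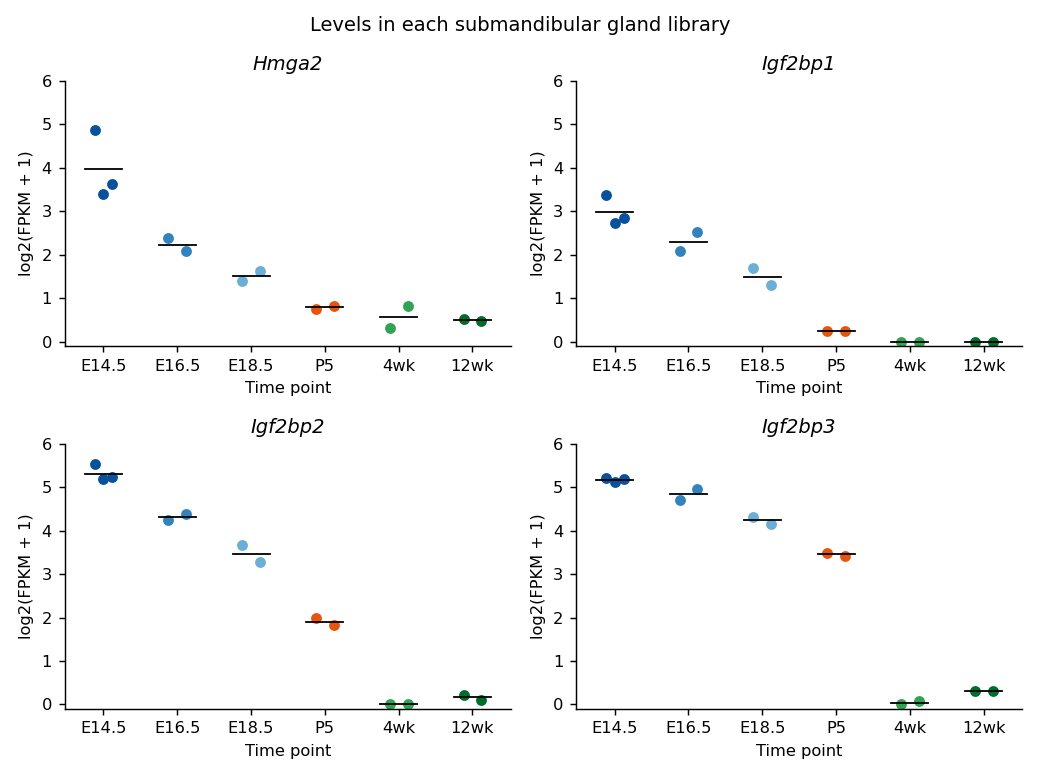
The plot shows log2(FPKM + 1) of Hmga2, Igf2bp1, Igf2bp2 and Igf2bp3 by time point, with each library as a point and the time point mean as a bar. All 4 genes were highest at E14.5 and near 0 in the adult libraries, while Igf2bp3 alone was still near 10 FPKM at P5.

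Because the genes fell at different rates, the mixture of Igf2bp transcripts changed as their sum fell. Igf2bp2 made up 46.9% to 49.9% of the summed Igf2bp FPKM at E14.5 and 20.7% to 22.1% at P5. The Igf2bp3 share was 39.7% to 45.2% at E14.5. It was 54.2% and 55.3% in the E16.5 libraries, 57.6% and 62.5% in the E18.5 libraries, and 76.4% and 77.9% at P5. The Igf2bp1 share was 5.44% to 10.4% in the embryo and 1.45% in both P5 libraries. The share of Igf2bp3 thus rose from age to age with no overlap between the libraries of successive ages, and that of Igf2bp2 fell in the same way.

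**Figure D2:**
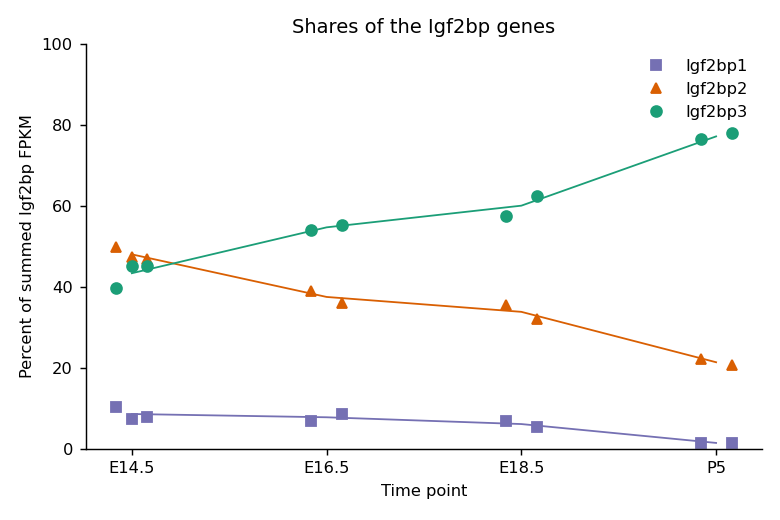
The plot shows the percent of the summed Igf2bp FPKM held by each of the 3 genes from E14.5 to P5, with each library as a point and lines through the means. Igf2bp3 goes from 39.7% to 45.2% at E14.5 up to 76.4% and 77.9% at P5, and the lines of Igf2bp2 and Igf2bp3 cross between E14.5 and E16.5.

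Ratios between related genes within a library, as log2 of the 2 values each plus 1, were compared between stages by two-sided exact permutation tests with Benjamini-Hochberg adjustment over 5 pairs. A difference passed where the adjusted p was under 0.05. The log2 ratio of Igf2bp2 to Igf2bp3 was -0.31 ± 0.45 (SD, n = 7) in the embryo and -1.54 ± 0.05 (SD, n = 2) at P5. The stages did not overlap, but with 36 labelings of 7 and 2 libraries the test cannot go below the p of 0.056 it gave (adjusted p = 0.093), and this comparison was added after the values were seen. Between embryo and adult, the log2 ratio of Igf2bp2 to Igf2bp1 went from 2.14 ± 0.22 (SD, n = 7) to 0.08 ± 0.10 (SD, n = 4), and that of Igf2bp1 to Igf2bp3 from -2.45 ± 0.32 (SD, n = 7) to -0.18 ± 0.16 (SD, n = 4). Both passed the exact permutation test (p = 0.0061, the smallest that 330 labelings can give, adjusted p = 0.015). With every adult Igf2bp value under 0.25 FPKM, the adult ratios rest mostly on the added 1, and they show only that the genes came together near 0. The ratio of Igf2bp2 to Igf2bp3 did not pass between embryo and adult (exact permutation adjusted p = 0.41, difference 0.22). The log2 ratio of Hmga1 to Hmga2 was -1.94 ± 1.40 (SD, n = 7) in the embryo and -0.48 ± 0.19 (SD, n = 4) in the adult (exact permutation adjusted p = 0.051), and that of Lin28a to Lin28b was -0.11 ± 0.23 and 0.01 ± 0.03 (exact permutation adjusted p = 0.41). The added 1 weighs on both of these pairs as well. Without it, Hmga1 to Hmga2 was 0.0257 to 0.879 in the embryo, 0.0785 in 4wk replicate 2, and 0.105 and 0.174 at 12wk. The rise to -0.48 thus cannot be read apart from the added 1. Lin28a to Lin28b without it ran from 0.148 to 3.88 within the embryo, so its flat log2 ratios say little.

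Hmga2 fell earliest of the abundant members. It was at 28.2, 9.60 and 11.4 FPKM at E14.5, 4.19 and 3.24 FPKM at E16.5, 1.63 and 2.07 FPKM at E18.5, and 0.699 and 0.778 FPKM at P5. Successive ages did not overlap up to P5, though the share of all genes for which this holds was not counted. In the adult it remained detectable in all libraries, at 0.247 and 0.782 FPKM at 4wk and 0.428 and 0.396 FPKM at 12wk, a range that overlapped P5. E14.5 replicate 1, the library with the highest erythroid level, held 2.69-fold more Hmga2 than the mean of the other E14.5 libraries. Without it the E14.5 mean was 10.5 in place of 16.4 FPKM, and the drop to E16.5 was 2.82-fold in place of 4.41-fold. The part of the other tissue in that library in this value was not tested. Of the 50-base stretches of the longest Hmga2 transcript, 26.4% occur elsewhere in the genome without a mismatch, so reads from them were left out by the authors' counting and the level is a lower estimate. The annotated pseudogene Hmga2-ps1 had its own row, at 5.29 ± 1.75 FPKM (SD, n = 3) at E14.5 and 20.04% ± 3.16 (SD, n = 2) of that at P5. In the adult this row was at 0.683 and 0.0832 FPKM at 4wk and 0.850 and 0.815 FPKM at 12wk. It was above Hmga2 in 4wk replicate 1 and at 12wk, and below it in 4wk replicate 2. How reads divide between the copies cannot be seen from FPKM.

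Hmga1 was far lower than Hmga2 at E14.5 and peaked at E16.5. Its levels were 0.786, 0.636 and 0.292 FPKM at E14.5, 1.35 and 2.84 FPKM at E16.5, 0.169 and 0.377 FPKM at E18.5, and 0.405 and 0.290 FPKM at P5. Both E16.5 libraries lay above all others. In the adult 0, 1, 2 and 4 reads were found, a mean of 0.0437 FPKM. Only 32.3% of the 50-base stretches of the longest Hmga1 transcript were unique in the genome. Reads from the rest were left out by the authors' counting, so the Hmga1 level is a minimum. The 2 E16.5 libraries also held the most skeletal muscle marker RNA, with summed levels of 8 markers of 518 and 1123 FPKM, in the same order as Hmga1. The sum was 502, 194 and 155 FPKM at E14.5, 3.63 and 26.2 FPKM at E18.5, and 1.19 to 17.3 FPKM afterwards, and Myod1 was at 0 in the P5 and adult libraries. The part of muscle tissue in the Hmga1 values was not tested.

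Lin28a and Lin28b, the let-7 inhibitors, had the lowest means of the group at E14.5 and never reached 1 FPKM in any library. Lin28b had 55, 25 and 42 reads in the E14.5 libraries, 12 and 30 in those of E16.5, 3 and 2 in those of E18.5, and 7 and 11 at P5. Pooled over each age, this was 17.1 reads per 10000000 at E14.5 (95% Poisson interval 14.2 to 20.4), 5.71 at E16.5 (4.11 to 7.72), 1.00 at E18.5 (0.326 to 2.34) and 1.99 at P5 (1.18 to 3.14). Lin28b was thus highest at E14.5, and E18.5 and P5 were not distinguishable at this depth. There was no read in the 4 adult libraries, which allows up to 0.469 reads per 10000000. Without rescaling, the embryo mean FPKM was at least 20.7-fold higher than this limit. Reads per 10000000 were 9.68 ± 9.83 (SD, n = 7) in the embryo and 0 in each adult library (exact permutation test, two-sided, p = 0.0061, the smallest that 330 labelings can give).

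Lin28a had 6, 3 and 4 reads in the E14.5 libraries, 18 and 24 in those of E16.5, 4 and 5 in those of E18.5, and 7 in each P5 library. Its highest age was therefore E16.5, with 5.71 reads per 10000000 (95% Poisson interval 4.11 to 7.72) against 1.82 (0.970 to 3.11) at E14.5, and like Hmga1 it was highest in the libraries with the most muscle marker RNA. The part of that tissue was not tested. One of the 4 adult libraries, 4wk replicate 2, held 1 read. The embryo level was 3.01 ± 1.99 (SD, n = 7) and the adult level 0.314 ± 0.628 (SD, n = 4) reads per 10000000 (exact permutation test, two-sided, p = 0.012). These permutation tests used rates that were not rescaled, and they were added after the values were seen. At 4wk the limit for a count of 0 was 2.18 reads per 10000000, above the P5 level of both Lin28 genes, so a fall from P5 to 4wk was not detectable.

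**Figure D3:**
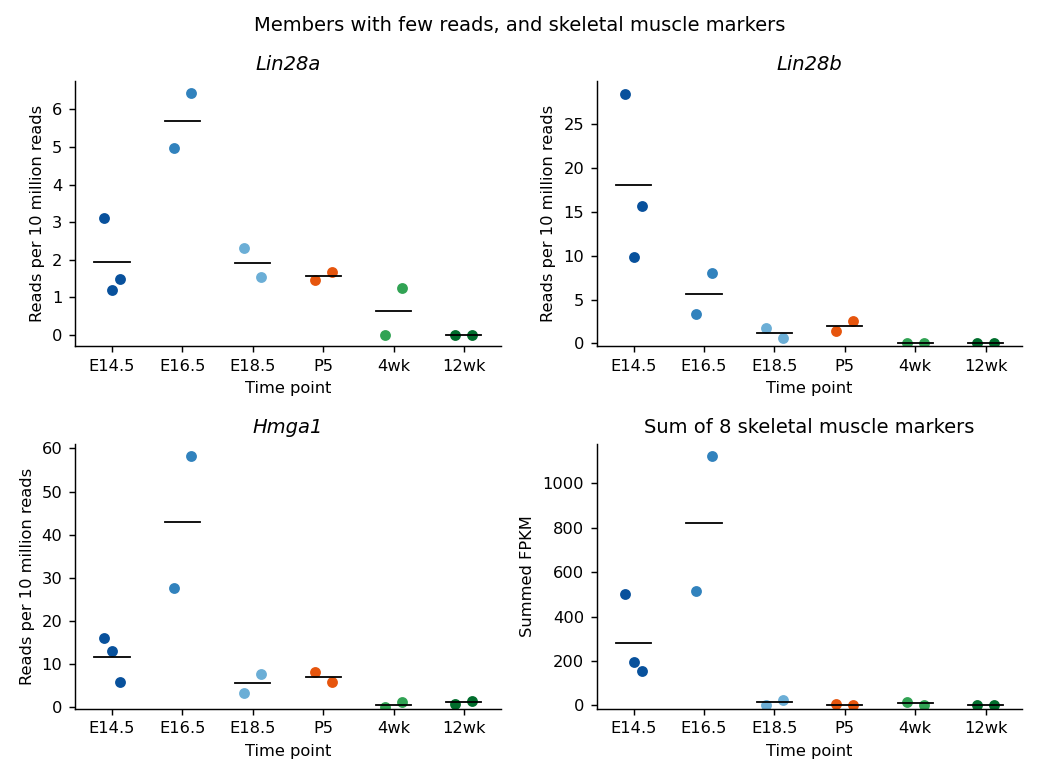
The plot shows reads per 10000000 reads on genes for Lin28a, Lin28b and Hmga1, and the summed FPKM of 8 skeletal muscle markers, with each library as a point and the time point mean as a bar. Lin28a, Hmga1 and the muscle markers peak at E16.5 (Hmga1 at 1.35 and 2.84 FPKM), while Lin28b is highest at E14.5.

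Stages were compared by limma on log2(FPKM + 1) over 14650 genes that reached 1 FPKM in any library, with Benjamini-Hochberg adjustment. A call needed an adjusted p under 0.1 and a log2 fold change of 1 or more in either direction. Of the 7 genes, 5 entered the test and both Lin28 genes did not. Hmga1, Hmga2 and Igf2bp1 reached 1 FPKM only in embryo libraries, so they were tested only because the embryo was high. Their falls from the embryo, and the lack of overlap with it, are therefore partly built in by the filter. Fold changes on this scale understate those of low genes. From embryo to adult, 4 of the 5 were called lower, and 38.0% of all tested genes were called lower in that comparison (14.7% after rescaling, when the same 4 genes were called). The called genes were Igf2bp3 (-4.64 ± 0.20 SE, limma adjusted p = 9.0e-10), Igf2bp2 (-4.42 ± 0.37 SE, limma adjusted p = 1.7e-07), Igf2bp1 (-2.36 ± 0.31 SE, limma adjusted p = 1.1e-05) and Hmga2 (-2.23 ± 0.53 SE, limma adjusted p = 0.0017). Rescaled, these log2 fold changes were -4.22, -4.05, -2.09 and -1.73. Hmga1 was at -0.76 ± 0.27 SE (limma adjusted p = 0.018), under the size limit. That was near the median of all genes as deposited, but rescaled it was at -0.59 (limma adjusted p = 0.038) against a median of -0.05, and with 0.1 in place of 1 added to FPKM it was called at -2.42 (limma adjusted p = 0.0014). Every adult library lay below every embryo library for all 5 tested genes, which was so for 54.1% of all tested genes.

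From embryo to P5 the same 4 genes were called lower, against 8.14% of all tested genes (3.91% after rescaling, again with the same 4). Igf2bp2 fell the most on this scale, by 2.59 ± 0.47 SE (limma adjusted p = 0.0027). Igf2bp1 was at -2.12 ± 0.40 SE (limma adjusted p = 0.0033), Hmga2 at -1.97 ± 0.68 SE (limma adjusted p = 0.046) and Igf2bp3 at -1.36 ± 0.26 SE (limma adjusted p = 0.0036). The Hmga2 call was lost without either P5 library (-1.94, limma adjusted p = 0.22 without P5 replicate 1 and -2.003, 0.21 without P5 replicate 2), with the fold change about as large. There the lone P5 library is assumed to vary like the other stages. All P5 values of these 4 genes lay below all embryo values, which was so for 33.8% of all tested genes. Hmga1 was at -0.40 ± 0.34 SE (limma adjusted p = 0.39) and its stages overlapped. From P5 to adult, only Igf2bp3 and Igf2bp2 could be called lower. Hmga1, Hmga2 and Igf2bp1 were under 1 FPKM at P5, so with 1 added they could not fall by the size limit. Igf2bp3 (-3.28 ± 0.28 SE, limma adjusted p = 4.4e-06) and Igf2bp2 (-1.83 ± 0.51 SE, limma adjusted p = 0.011) were called lower, against 20.8% of all tested genes (8.56% after rescaling, when both were called). With 0.1 added in place of 1, Igf2bp1 (-1.52, limma adjusted p = 0.045) and Hmga1 (-1.65, limma adjusted p = 0.091) were called lower as well. Igf2bp1 had 142 reads at P5 and 0 in the adult. Hmga2 was at -0.26 ± 0.74 SE as deposited and -0.01 ± 0.70 SE rescaled (limma adjusted p = 0.79 and 1).

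**Figure D4:**
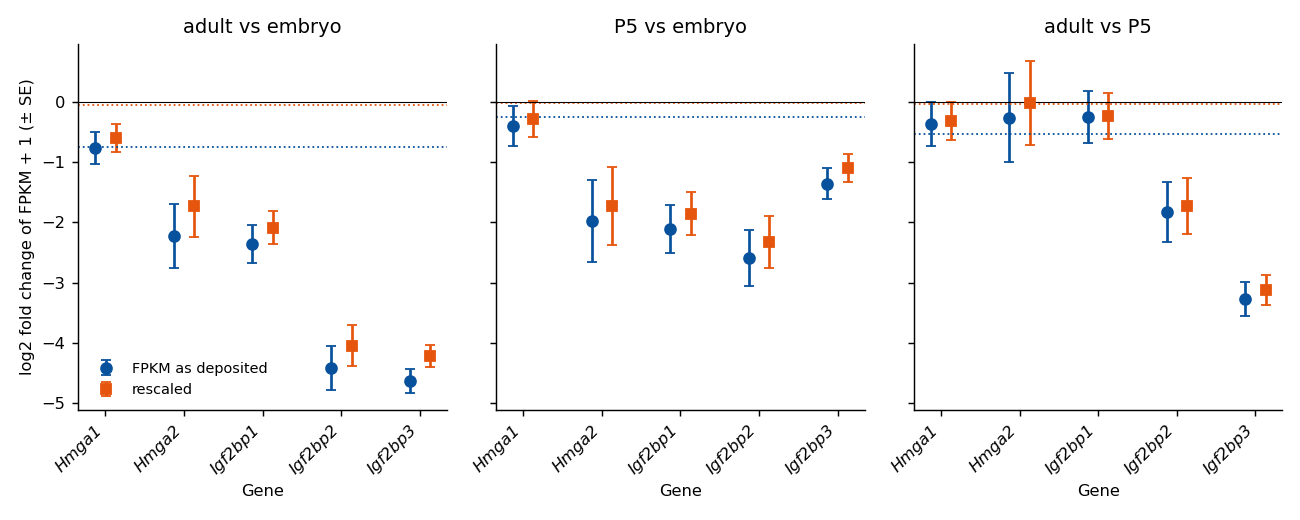
The plot shows the log2 fold change of FPKM + 1 with its SE for the 5 tested genes in each stage comparison, from FPKM as deposited (circles) and rescaled (squares), with dotted lines at the median of all tested genes. Igf2bp2 and Igf2bp3 lie below -4 from embryo to adult under both scalings, and Hmga1 lies near the deposited median of -0.75.

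Comparisons of neighbouring ages, in a second fit with the 6 ages as groups, place the steps. From E14.5 to E16.5, Hmga2 was called lower (-1.74 ± 0.35 SE, limma adjusted p = 0.0072), against 0.983% of all tested genes. Igf2bp2 stood just under the size limit, at -0.999 ± 0.159 SE (limma adjusted p = 0.0021), and was called when E14.5 replicate 2, E14.5 replicate 3 or E16.5 replicate 2 was left out. Hmga1 was at 0.95 ± 0.21 SE (limma adjusted p = 0.012) and was called higher without E14.5 replicate 1 (1.05) or without E16.5 replicate 1 (1.30). From E16.5 to E18.5, Hmga1 was called lower (-1.24 ± 0.23 SE, limma adjusted p = 0.0089), against 1.85% of all tested genes. Hmga1 reached 1 FPKM, and so entered the test, only through the E16.5 libraries, so a difference from them was built into its being tested. That call was lost without E16.5 replicate 2, the library richest in muscle markers (-0.89, limma adjusted p = 0.052). Without E16.5 replicate 1 Igf2bp1 was called as well (-1.02), and without E18.5 replicate 1 Igf2bp2 was (-1.04).

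Over birth, 2 of the 3 Igf2bp genes were called lower. From E18.5 to P5, Igf2bp2 (-1.56 ± 0.17 SE, limma adjusted p = 0.00032) and Igf2bp1 (-1.25 ± 0.23 SE, limma adjusted p = 0.0051) were called lower, against 2.97% of all tested genes. Igf2bp3 was at -0.79 ± 0.14 SE (limma adjusted p = 0.0034), under the size limit. From P5 to 4wk, Igf2bp3 (-3.41 ± 0.14 SE, limma adjusted p = 1.5e-08) and Igf2bp2 (-1.91 ± 0.17 SE, limma adjusted p = 1.2e-05) were called lower, against 22.1% of all tested genes. Hmga1, Hmga2 and Igf2bp1 were under 1 FPKM at P5 and could not be called lower on this scale. From 4wk to 12wk, limma called 0 of the 5 genes, against 5.15% of all tested genes called in either direction, and 0 had an unadjusted p under 0.05. All 5 were under 1 FPKM in every library of both ages, so with 1 added none could reach the size limit. The count of 0 calls was thus fixed by the scale and says nothing about these genes. Igf2bp3 had 2 reads at 4wk, or 1.45 per 10000000 (95% Poisson interval 0.176 to 5.24), and 52 reads at 12wk, or 10.4 per 10000000 (7.73 to 13.6). For Igf2bp2 the counts were 0 (0 to 2.68 per 10000000) and 23, or 4.58 per 10000000 (2.90 to 6.87). After rescaling, the calls between neighbouring ages fell on the same members at each step. The intervals at 4wk and 12wk do not overlap, and they cover the counting error of 2 libraries at each age and not the spread between animals.

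The order of the levels changed with age. At E14.5 it was Igf2bp2 and Igf2bp3, then Hmga2, Igf2bp1, Hmga1, Lin28b and Lin28a. The ranges of Igf2bp2 and Igf2bp3 overlapped, with Igf2bp2 the higher within each library. The libraries of Hmga1 and Lin28b overlapped, while those of Lin28a lay below both. Hmga2 was above Igf2bp1 within each E14.5 library, at 28.2 against 9.34, 9.60 against 5.60 and 11.4 against 6.20 FPKM. At P5 the order was Igf2bp3, Igf2bp2, Hmga2, Hmga1 and Igf2bp1, followed by the Lin28 genes, whose P5 libraries overlapped. At 12wk Hmga2 was the highest of the group, at 0.412 ± 0.0227 FPKM (SD, n = 2), above Igf2bp3 at 0.239 ± 0.00554 FPKM (SD, n = 2). The levels of Hmga1 and Hmga2 are minimums to different degrees, with 32.3% and 73.6% of their 50-base stretches unique, so their ranks against each other and against genes of close level do not hold beyond that limit. Igf2bp3 stood at percentile 84.4 of levels among tested genes at E14.5 and at percentile 58.9 at P5. Hmga2 stood at percentile 66.3 at E14.5 and 9.55 at P5.

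The fall of the group was set beside those of the tissue and proliferation markers, which went down to different degrees. Summed erythroid and skeletal muscle markers were at 1.13% and 1.47% of their E14.5 means at P5, lower than any member. The summed level of 8 mesenchymal markers at P5 was 57.8% of its E14.5 mean, and that of 12 proliferation markers was 34.6%. Igf2bp3 had reached 28.4%, Igf2bp2 7.08%, Hmga2 4.504% and Igf2bp1 2.65% of their E14.5 means by the same age. Without E14.5 replicate 1 these were 28.8%, 7.67%, 7.04% and 3.16%. By 12wk both marker sums were also low, at 4.66% and 4.96%. Epithelial markers moved the other way up to P5, to 282% of E14.5, and were at 141% at 12wk. The part of a changing mixture of cells in the values of the Igf2bp and Hmga genes was not tested.

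**Figure D5:**
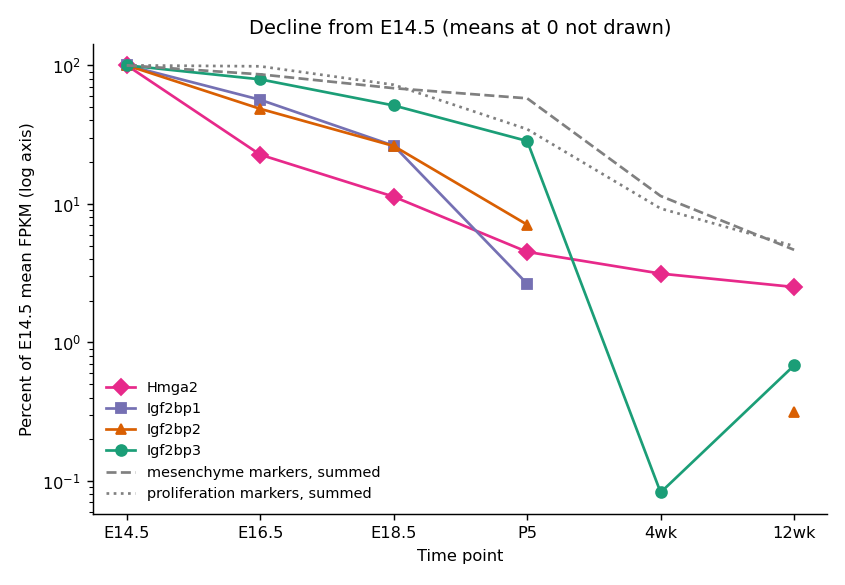
The plot shows the mean FPKM of Hmga2 and the Igf2bp genes at each age as a percent of the E14.5 mean, on a log axis, with the summed mesenchymal and proliferation markers as grey lines and means of 0 left out. At P5 the markers are at 57.8% and 34.6%, Igf2bp3 is at 28.4%, and Hmga2, Igf2bp1 and Igf2bp2 are under 10%, with Hmga2 at 4.504% and, without E14.5 replicate 1, at 7.04%.

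Genes with the profile most like each member were taken by the root mean square difference in centred log2(FPKM + 1) over the 13 libraries, among 14650 genes. Nearest to Igf2bp3 were Basp1, a membrane protein of growing axons (difference 0.143), Col9a3, a cartilage collagen chain (0.204), and Lrrc17 (0.231). Nearest to Igf2bp2 were Plod2, a collagen lysyl hydroxylase (0.234), 6330403K07Rik (0.263) and Has2, a hyaluronan synthase (0.310), and nearest to Igf2bp1 were Mum1l1 (0.221), Palm3 (0.227) and Tmem26 (0.229). Each of these neighbours fell at every step from E14.5 to P5, which follows from their choice by likeness to the falling Igf2bp genes. For Hmga2 they were Stra6, a retinol transporter (0.197), Slitrk1 (0.225) and Efnb3, an ephrin ligand (0.335). For Hmga1 they were muscle genes, Cacng6, a calcium channel subunit of skeletal muscle (0.182), Nrap, a protein of developing myofibrils (0.182), and Myo18b, a muscle myosin (0.190). A fall of the mean at every step from E14.5 to 4wk was seen in 4 of the 7 genes, Hmga2 and the Igf2bp genes, and in 23.8% of all tested genes. The 7 include the untested Lin28 genes. For Hmga2 the libraries of P5 and 4wk overlapped, and the log2 fold change of that step was 0.0417 after rescaling.

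Genes that make or remove let-7 and other microRNAs were often lower in the adult as deposited, and mostly not called once rescaled. Of 20 listed, 19 were tested and 11 were called lower from embryo to adult as deposited, against 38.0% of all tested genes, with a median log2 fold change of -1.19 beside -0.75 for all genes. After rescaling 1 was called lower, against 14.7% of all tested genes, and the median was -0.38 beside -0.05 for all genes. The gene called after rescaling was Zcchc11, which adds uridines to let-7 precursors together with Lin28a (-2.21 ± 0.28 SE, limma adjusted p = 7.1e-06, rescaled -1.47). Drosha, the nuclease that releases microRNA hairpins, was at -1.80 (limma adjusted p = 8.6e-06) and -0.97 rescaled, and Prkra, a Dicer partner, was at -1.74 (limma adjusted p = 5.3e-08) and -0.85 rescaled. Trim71, a let-7 target of early embryos, never reached 1 FPKM and was at 0 in all adult libraries.

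Other known let-7 targets showed a mixed course. Of 24 listed, 21 were tested and 11 were called lower from embryo to adult (median -1.10), while after rescaling 5 were called lower (median -0.40), and none was called higher under either scaling. Over all tested genes, 38.0% were called lower as deposited and 14.7% rescaled, with medians of -0.75 and -0.05. Ccnd2, a D-type cyclin, changed the most. Its level was 97.9 ± 49.9 FPKM (SD, n = 7) in the embryo and 2.59 ± 1.23 FPKM (SD, n = 4) in the adult (-4.66 ± 0.37 SE on the log2 scale, limma adjusted p = 1.3e-07). Ccnd1, its relative, was at -2.56 ± 0.26 SE (limma adjusted p = 1.1e-06), and rescaled these were -3.88 and -1.63. The seed match was found in 11 of the 24 listed genes and in 4 of the 11 called lower. Ccnd1 and Ccnd2 held none in the annotated 3′ UTR.

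Among RNAs that Igf2bp proteins are known to bind, H19 and Igf2 fell the most. H19, an imprinted non-coding RNA, went from 2135 ± 690 FPKM (SD, n = 7) in the embryo to 519 FPKM at P5 and 2.35 ± 1.17 FPKM (SD, n = 4) in the adult (log2 fold change -9.31 ± 0.25 SE, limma adjusted p = 1.5e-11). Igf2, the fetal growth factor after which the family is named, went from 672 ± 236 FPKM (SD, n = 7) to 250 FPKM at P5 and 0.964 ± 0.0914 FPKM (SD, n = 4) in the adult (-8.35 ± 0.23 SE, limma adjusted p = 1.5e-11). Gap43, a growth cone protein, fell by 4.30 ± 0.27 SE on the log2 scale (limma adjusted p = 1.4e-08). Rescaled, the log2 fold changes of H19, Igf2 and Gap43 were -8.53, -7.67 and -3.68. In all, 6 of the 9 genes were called lower and 0 higher from embryo to adult as deposited, and 4 lower and 1 higher after rescaling, against 38.0% lower and 5.58% higher of all tested genes as deposited and 14.7% and 13.8% rescaled. Cd44, a hyaluronan receptor, was that one, with a log2 fold change of 0.65 as deposited and 1.54 rescaled.

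The other HMG proteins fell later than Hmga2 in these means, a difference that was not tested. Their summed level was at 100% of E14.5 at E16.5 (84.9% and 116% in the libraries) and 37.9% at P5. Hmga2 was at 22.7% and 4.504%. Without E14.5 replicate 1, Hmga2 fell 2.82-fold to E16.5 and was at 7.04% at P5. Of 7 genes, 6 were called lower from embryo to adult under both scalings (median -2.82 as deposited and -1.88 rescaled), against 38.0% of all tested genes as deposited and 14.7% rescaled. Hmgb2, a DNA-bending protein of dividing cells, was at 249 ± 49.6 FPKM (SD, n = 7) in the embryo and 10.96 ± 4.77 FPKM (SD, n = 4) in the adult (-4.45 ± 0.21 SE, limma adjusted p = 1.6e-09). Hmgn2, a nucleosome-binding protein, was at -3.67 ± 0.17 SE (limma adjusted p = 1.3e-09) and Hmgb3 at -3.17 ± 0.20 SE (limma adjusted p = 1.8e-08), and rescaled the 3 genes were at -3.55, -2.73 and -2.27. All 12 proliferation genes were called lower from embryo to adult under both scalings (median -4.27 and -3.62), with Ccnb1 (-5.19), Top2a (-5.02) and Cdk1 (-4.71) changed the most. Among the marker lists, against 38.0% of all tested genes, genes called lower from embryo to adult as deposited were 8 of 8 for mesenchyme, 8 of 8 for skeletal muscle, 5 of 6 for neurons, 5 of 5 for endothelium, 5 of 5 tested for erythroid cells, 2 of 8 for epithelium and 0 of 6 for immune cells. Called higher were 5 of 6 acinar and 4 of 4 tested granular duct markers, against 5.58% of all tested genes. After rescaling, with 14.7% of all tested genes called lower and 13.8% higher, endothelial markers were 2 of 5 lower, neuronal 4 of 6 lower, epithelial 1 lower and 2 higher of 8, and immune 3 of 6 higher, and the other marker counts did not move. The called markers with the largest log2 fold changes were Col1a1 (-4.27), Col3a1 (-4.03) and Col1a2 (-3.94) for mesenchyme, Actc1 (-5.22), Acta1 (-4.20) and Tnnt3 (-4.06) for muscle, and Stmn2 (-3.29), Prph (-3.18) and Tubb3 (-2.93) for neurons. They were Cdh5 (-2.65), Tek (-1.77) and Kdr (-1.53) for endothelium, Hbb-y (-5.55), Alas2 (-4.53) and Hba-x (-4.15) for erythroid cells, and Krt19 (-2.41) and Krt14 (-1.02) for epithelium. Of these, Kdr (-0.70) and Krt14 (-0.09, limma adjusted p = 0.65) were no longer called after rescaling. Among secretory genes they were Prol1 (10.45), Pip (8.92) and Bhlha15 (3.10) for acini and Klk1b22 (11.45), Egf (9.98) and Klk1 (9.75) for granular ducts.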

How the data were processed

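RNA-seq of submandibular glands was analysed in 13 libraries. Per the paper's methods, the authors aligned 50-base single-end reads to mm9 with TopHat2 2.0.13 and Bowtie2 2.2.6 and counted them with featureCounts, leaving out reads that mapped to several places or overlapped several genes. The authors deposited FPKM, and their methods name DESeq2 1.10.1 for normalizing counts and deriving FPKM, whereas the steps of the values show scaling to each library's reads on genes, with no median-of-ratios factor. Low FPKM of a gene are whole multiples of 1 read (within a relative tolerance of 0.0001 for 99.99% of genes), and reads and depth were recovered from these steps. No count model was fitted, since the values are not counts.

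Groups came from the sample titles. Stages and ages were compared with limma 3.58.1 (R 4.3.3, lmFit and eBayes with a trend) on log2(FPKM + 1) for 14650 genes that reached 1 FPKM in any library. Ratios were tested by exact permutation (scipy 1.17.1). Nothing says that libraries of an age came from separate litters, so p-values measure the spread between these libraries. In the stage comparisons this spread includes the differences between the ages pooled in a stage. In the fit with each age as a group it does not. The code was tested on simulated data. Genes named were all 7 members, the 3 called genes with the largest change from embryo to adult in each other list, and the 3 genes with the nearest profile to each member. Of the genes this rule names, 1 is not reported here. The genes Trim71, Cd44 and Myod1 were named after their values were seen. The members, lists and tests were chosen with earlier results of these data known. Alternatives were another pseudocount (0.1), filters, rescaling, thresholds, a replicate block, ages averaged within a stage and leaving out each library.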

Additional observations from a re-analysis of the deposited data

Results flagged for a closer look

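Among the 12 sets of embryo or adult libraries examined for the 7 genes, 2 held a library far from the others of its stage. The cutoff is set to single out about 1 in 20 sets of libraries of 1 kind with a normal spread. These sets are not of that kind, so the number flagged cannot be judged against that rate. A lone library above 0 among libraries at 0 is flagged whatever its level. Hmga2 in E14.5 replicate 1 was at 28.2 FPKM, with 11.4 FPKM as the nearest embryo library, in a stage that spans 3 ages. Lin28a in 4wk replicate 2 was at 0.0361 FPKM, which is 1 read, with the other adult libraries at 0.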

How the results depend on the processing

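The counts of genes called lower from embryo to adult (4) and from embryo to P5 (4) held under all other settings to within 1, with 5 for the adult at a pseudocount of 0.1, and 3 to 4 for P5 when single libraries were left out. With a pseudocount of 0.1, calls were 4 for adult against P5 (2 in the main analysis), 3 for E16.5 against E14.5 (1), 4 for 4wk against P5 (2) and 2 for 12wk against 4wk (0). In the last of these, Igf2bp2 (1.13) and Igf2bp3 (1.43) were called higher at 12wk. A smaller pseudocount enlarges fold changes of low genes by construction. With the replicate block there were 2 calls for E16.5 against E14.5, and the block changed no other count. Libraries with the same replicate number did not deviate together (mean correlation -0.02 over 30 pairs), so the numbers only name the libraries. With single libraries left out, calls ranged from 1 to 2 for E16.5 against E14.5 and from 0 to 2 for E18.5 against E16.5. The log2 ratio difference of Igf2bp2 to Igf2bp3 between adult and embryo turned from 0.22 to -0.153 with a pseudocount of 0.1, and passed the test in neither case. That of Hmga1 to Hmga2 ranged from 1.12 to 1.77 with single libraries left out and passed the threshold of 0.05 without E16.5 replicate 2 (exact permutation adjusted p = 0.016 in place of 0.051). The added 1 weighs on this difference as well. Signs turned only where the change was small, for Hmga2 from P5 to 4wk when rescaled (0.0417). With single libraries left out, log2 fold changes ranged from -0.479 to 0.0364 for that step, from -0.336 to 0.179 for Hmga2 from 4wk to 12wk, from -0.0325 to 0.203 for Hmga1 from E18.5 to P5, and from -0.00641 to 0.0796 for Hmga1 from 4wk to 12wk. In settings chosen after the data were seen, the stage counts were 4, 4 and 2 without E14.5 replicate 1 and both 4wk libraries, and those from embryo to adult and to P5 were 4 and 4 without both E16.5 libraries. At 4wk, levels under 2.18 reads per 10000000 were not detectable.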

Other observations

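Rows for let-7 hairpins held few reads, and these libraries, made from long RNA, do not measure the mature microRNA. Mirlet7d had 66 and 48 reads at P5, 19 and 22 at E18.5, 4 to 9 at E14.5 and E16.5, and 0 to 5 in the adult. Mirlet7b had 36 and 11 reads at P5, at most 1 in any embryo library and at most 1 in any adult library. Mirlet7c-2 had 29 and 19 reads at P5, at most 2 in any embryo library and at most 1 in any adult library. The highest counts of these 3 rows were at P5, which also had the deepest libraries, at 42168626 and 48314162 reads on genes. Per 10000000 reads on genes, Mirlet7d was at 13.7 and 11.4 at P5, at 10.95 and 6.78 at E18.5, and at 1.58 to 4.15 at E14.5 and E16.5. These differences were not tested.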
